A study of Sus scrofa with 3 samples.

Results

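The regulators of thermogenic and beige fat described here are 8 genes, PPARGC1A, PPARGC1B, PRDM16, EBF2, CIDEA, ELOVL3, UCP2 and UCP3. They were taken by name from the 22826 genes classed as mRNA, whatever their values. Of the 8 genes, 7 were listed under these symbols, and PPARGC1A was listed as PPARGC-1, which RefSeq gives as its synonym. Of the 8, 5 genes had values above 0 in every library and 3, namely PPARGC1A, CIDEA and ELOVL3, were listed at 0 in every library.

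The samples were visceral, retroperitoneal fat of male Chinese Wuzhishan miniature pigs that were 6 to 7 months old when the study began. All groups were fed for 12 weeks on the HFC diet, which is rich in fat and cholesterol, so none of these libraries comes from pigs on normal feed. Intact males (IM) had sham skin incisions, castrated males (CM) had the testes removed, and castrated males with testosterone replacement (CMT) also received 10 mg/kg testosterone propionate by injection every week. Equal amounts of RNA from 4 to 6 pigs by the labels, and from 4 by the study's methods, were mixed for each group, and the groups have 1 library each, without replicates. The comparisons ask what castration did to fat on this diet (CM over IM, written CM/IM) and what testosterone did after castration (CMT/CM, with CMT/IM beside it), but with single pools no difference has a replicate check.

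Brown and beige fat cells burn fuel to make heat. In most mammals the mitochondrial carrier UCP1 does this by letting protons leak back without making ATP. PGC-1α, encoded by PPARGC1A, and PGC-1β, encoded by PPARGC1B, are coactivators that raise mitochondrial gene expression. PRDM16 and EBF2 are transcription factors that set the brown and beige identity, and CIDEA, a lipid droplet protein, and ELOVL3, a fatty acid elongase, are classical markers of these cells. Pigs have no functional UCP1, so what remains of the programme are its regulators, its markers and the related carriers UCP2 and UCP3, which are not regarded as heat producers of the UCP1 kind.

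Expression is given in UQRPKM, the authors' unit, which divides reads by gene length in kilobases and by each library's upper quartile. The reads behind each value were recovered from its whole steps. Their sums over all genes were 16611931, 15561124 and 15106608 for IM, CM and CMT. Where 3 levels or reads are given together, they stand in the order IM, CM, CMT. Differences are log2 ratios of UQRPKM without a pseudocount, each with an exact Clopper-Pearson 95% interval from the reads. Since each group is 1 pooled library, the intervals cover counting error only and not the spread between pigs. Amplified reads can be copies of one molecule, so the intervals can be too narrow even for counting error. Genes passed the fold limit, and are said to have risen or fallen, at a fold of 1.5 or more (0.58 on the log2 scale) with at least 1 UQRPKM in both libraries. An exact binomial test on the reads, with p-values adjusted by Benjamini-Hochberg over all mRNA genes with reads, compares the 2 libraries and not the conditions.

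Other cell types were checked because pooled fat can carry them. Of 11 white adipocyte markers classed as mRNA, all 11 were above 0 in each library, with summed levels of 155231, 148387 and 123980 UQRPKM in IM, CM and CMT. ADIPOQ alone had 74928, 69193 and 63873 UQRPKM, and the other markers summed to 80303, 79194 and 60107 UQRPKM. By gene, 8 of the 11 were highest in CM and 3 in IM. Of 19 skeletal muscle markers, 14 were above 0 in CMT and all 14 were highest there, with a summed level of 7801 UQRPKM in CMT against 171 in IM and 139 in CM. CKM, MB, NEB, TNNT3 and MYOD1 of that list were at 0 in every library. Of 17 hepatocyte markers, 16 were highest in CM, with sums of 2559, 10178 and 1739 UQRPKM in IM, CM and CMT. APOA1, singled out after its values were seen, made up most of the IM and CMT sums, and the other 16 summed to 19.9, 7839 and 24.5 UQRPKM. ALB, the liver's albumin, had 10, 10612 and 15 reads. Of 8 keratinocyte and sebocyte markers, 7 were highest in IM, with sums of 267, 87.8 and 77.7 UQRPKM. In the plot of marker lists, the muscle, hepatocyte and keratinocyte lists are those whose libraries stand furthest apart.

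**Figure D1:**
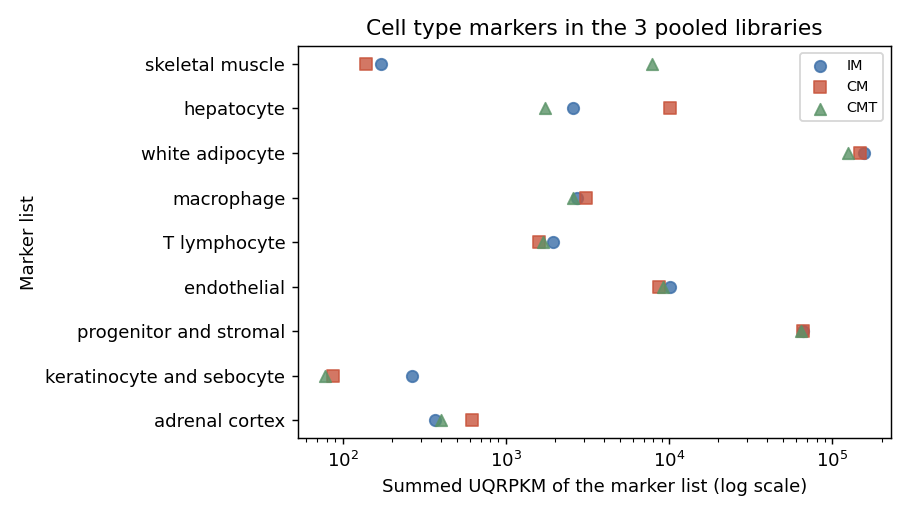
Summed UQRPKM of each fixed marker list (horizontal log axis) in the IM, CM and CMT libraries, 1 point per library. The skeletal muscle sum lies at 7801 in CMT against 171 and 139, the hepatocyte sum at 10178 in CM against 2559 and 1739, and the white adipocyte sum between 123980 and 155231.

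Among the uncoupling carriers, UCP1 was listed as ncRNA and not as mRNA. It had 1 read in IM and was listed at 0 in CM and CMT. UCP3, a carrier usually described in skeletal muscle and brown fat, had by far the highest level of the 8 genes. Its IM, CM and CMT values were 1941, 2332 and 1240 UQRPKM, from 6492, 7435 and 4063 reads. These levels were at or above those of 97.1%, 97.5% and 95.7% of the mRNA genes above 0 in the same library. UCP3 was therefore highest in CM and lowest in CMT, and the counting intervals of the 3 levels did not overlap.

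UCP2, a widely expressed carrier that is also found in immune cells, had 296, 286 and 359 UQRPKM, from 733, 675 and 871 reads. It was highest in CMT, where UCP3 was lowest, and its levels in IM and CM did not differ beyond their counting intervals. The UQRPKM of UCP3 was 6.55, 8.15 and 3.45 times that of UCP2 in the IM, CM and CMT libraries. This ratio is taken within a library and does not depend on the scaling. SLC25A27 (also named UCP4), a carrier of the same family known from the brain, had 43.9, 55.4 and 42.5 UQRPKM and passed the fold in no comparison. UCP2 and UCP3 are related in sequence, and how reads that map to several genes were handled is not given in the sources used here.

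EBF2, which marks brown and beige precursors, had 133, 92.7 and 130 UQRPKM, from 485, 323 and 465 reads. It was lowest in CM, and the counting intervals of IM and CMT overlapped. PPARGC1B had 18.5, 22.3 and 18.3 UQRPKM, from 278, 319 and 269 reads. The intervals of all 3 libraries overlapped for this coactivator. PRDM16 was the lowest of the genes above 0, with 4.79, 6.58 and 4.51 UQRPKM from 26, 34 and 24 reads, and its intervals also overlapped. The order of levels per length, UCP3, UCP2, EBF2, PPARGC1B and PRDM16, was the same in every library, and no neighbours in that order had overlapping intervals within a library.

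**Figure D2:**
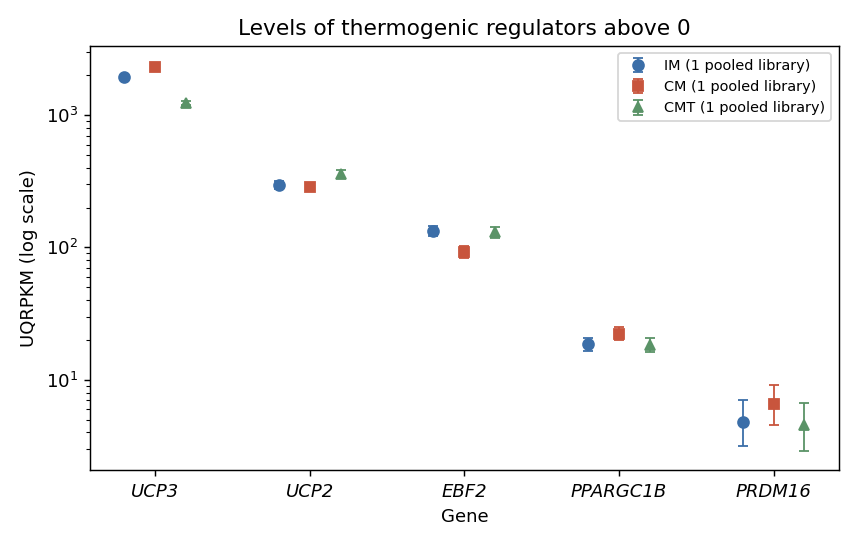
UQRPKM (vertical log axis) of the 5 genes above 0 in the IM, CM and CMT libraries. Points are the values of 1 pooled library each and bars are exact Poisson 95% intervals from the recovered reads. UCP3 lies between 1240 and 2332, UCP2 between 286 and 359, EBF2 between 92.7 and 133, PPARGC1B between 18.3 and 22.3, and PRDM16 between 4.51 and 6.58.

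PPARGC1A, CIDEA and ELOVL3 were listed at 0 in IM, CM and CMT. A listing at 0 does not show that a gene is silent, because 26.2% of all mRNA genes and 14.0% of those with a symbol other than a LOC number were at 0 in every library. The genes at 0 included SDHA, a subunit of respiratory complex II that cells with mitochondria use, and 6 of 66 cytosolic ribosomal protein genes. CKM, the muscle creatine kinase, was at 0 also in CMT, where the skeletal muscle actin ACTA1 reached 3589 UQRPKM. No level and no difference can therefore be given for PGC-1α, CIDEA or ELOVL3.

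In CM/IM, 0 of the 5 measured regulators passed the 1.5-fold limit, against 18.8% of the 14123 mRNA genes tested, with 8.38% higher and 10.4% lower in CM. EBF2 came closest, with a log2 ratio of -0.52 (95% interval -0.72 to -0.31) and an adjusted p of 5.08e-06 in the exact binomial test. UCP3 was 1.20-fold higher in CM, with a log2 ratio of 0.27 (0.22 to 0.31). PPARGC1B had a similar ratio of 0.27 but a wider interval of 0.03 to 0.51, and an adjusted exact p of 0.0711. The ratio of PRDM16 was 0.46 (-0.32 to 1.25) and that of UCP2 was -0.05 (-0.20 to 0.10), so neither differed between the libraries beyond counting error. The median log2 ratio of the 5 genes was 0.27, and that of all genes tested was -0.06.

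In CMT/CM, 1 of 5 regulators passed the limit, against 19.5% of the 14098 genes tested, with 9.53% higher and 9.97% lower in CMT. UCP3 fell by 0.91 on the log2 scale (interval -0.97 to -0.86), which made it 1.88-fold lower in CMT than in CM, with an adjusted p of 1.65e-238 in the exact test of the libraries. Scaled to white adipocyte markers, UCP3 was under the limit at -0.49, while EBF2 at 0.91 and UCP2 at 0.75 were past it. With the deposited scaling, EBF2 had a ratio of 0.49 (0.28 to 0.69) and UCP2 of 0.33 (0.18 to 0.47), with adjusted exact p of 2.68e-05 and 7.80e-05. Both then lay under the fold limit, in the direction opposite to UCP3. PPARGC1B had -0.29 (-0.53 to -0.05) with an adjusted exact p of 0.0580, and PRDM16 had -0.54 (-1.36 to 0.25). Scaled to white adipocyte markers, the PPARGC1B ratio was 0.14, which has the other sign and lies outside its interval. The median of the 5 genes with the deposited scaling was -0.29, against -0.02 over all genes tested.

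In CMT/IM, 1 of 5 regulators passed, against 20.7% of the 14151 genes tested, with 8.81% higher and 11.9% lower in CMT. UCP3 was 1.57-fold lower in CMT than in IM, with a log2 ratio of -0.65 (-0.70 to -0.59) and an adjusted exact p of 5.11e-112. This call was lost when the libraries were scaled to the median gene, to total mRNA reads or to white adipocyte markers, where the ratio was -0.56, -0.53 and -0.41. UCP2 had 0.28 (0.13 to 0.42) with an adjusted exact p of 0.000639. PPARGC1B, PRDM16 and EBF2 had ratios of -0.02 (-0.27 to 0.23), -0.09 (-0.95 to 0.77) and -0.03 (-0.22 to 0.16), so the CMT and IM libraries did not differ for them beyond counting error. The median of the 5 genes was -0.03, against -0.08 over all genes. All comparisons share libraries, so the lower EBF2 in CM enters both comparisons with CM.

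**Figure D3:**
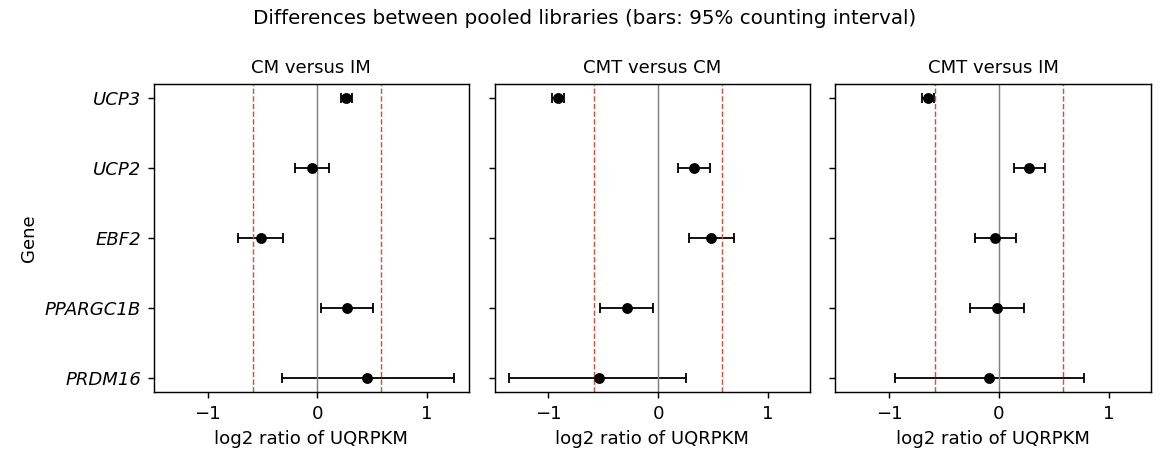
Log2 ratios of UQRPKM (horizontal axis) of the 5 regulators for each pair of groups. Points compare 2 pooled libraries, bars are exact 95% counting intervals, and dashed lines mark a fold of 1.5. UCP3 is the gene past the dashed line, at -0.91 in CMT/CM and -0.65 in CMT/IM, while EBF2 stays inside it at -0.52, 0.49 and -0.03.

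Recovered reads can be too low by a common factor for any gene, which matters most for PRDM16, the gene with the fewest. With 2 times its reads the interval was -0.09 to 1.01 in CM/IM, -1.11 to 0.01 in CMT/CM and -0.68 to 0.51 in CMT/IM. Each of these ranges runs from a negative to a positive ratio, so PRDM16 did not differ between the libraries beyond counting error. The ranges do not give the smallest change that could have been detected.

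White adipocyte markers were set beside UCP3, since this is a fat sample. Among the 11 markers, 8 were highest in CM and 9 were lowest in CMT, as UCP3 was. The UQRPKM of UCP3 was 0.105, 0.125 and 0.099 times that of the marker PLIN1 in IM, CM and CMT. Against PLIN4 it was 0.217, 0.249 and 0.270 times, and against ADIPOQ 0.026, 0.034 and 0.019 times. Of the 11 markers, 3 fell in CMT/CM and 1 in CMT/IM, where 9.97% and 11.9% of all genes fell. The list had a median log2 ratio of -0.42 in CMT/CM and -0.24 in CMT/IM, against -0.02 and -0.08 over all genes tested. The markers that fell in CMT/CM were LEP, the hormone leptin, by 1.69, PLIN4, which coats lipid droplets, by 1.03, and AQP7, a glycerol channel, by 0.62. PNPLA2, a triglyceride lipase, had the highest ratio of the list at 0.07. In bulk tissue, fewer cells of a type and less RNA per cell cannot be told apart. The skeletal muscle sum was highest in the CMT library, where UCP3 was lowest. The part of adipocytes or muscle cells in the UCP3 differences was not tested.

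For UCP2, the 12 macrophage markers classed as mRNA summed to 2721, 3087 and 2590 UQRPKM in IM, CM and CMT, with 11 above 0 in each library and CD163 at 0. The 12 T lymphocyte markers summed to 1929, 1603 and 1689 UQRPKM, all of them above 0. CD247 held most of each T lymphocyte sum, and the others summed to 552, 432 and 484 UQRPKM. UCP2 was highest in CMT, where the macrophage sum was lowest. By gene the macrophage list was mixed, with 6 of the 11 markers above 0 lowest in CMT, 4 in IM and 1 in CM. The 2 macrophage markers MRC1 and MSR1 were highest in CMT, as UCP2 was. For EBF2, the 9 progenitor and stromal markers summed to 66230, 65809 and 63839 UQRPKM. Without the collagen COL3A1, which held most of each sum, the other 8 summed to 22732, 19799 and 24023 UQRPKM. COL3A1 and CD247 were left out as the genes with the highest mean level of their lists. The full stromal sum was lowest in CMT, and the sum without COL3A1 was lowest in CM. Of the 9 markers, 5 were lowest in CM as EBF2 was, 2 in IM and 2 in CMT. The part of these cell types in the differences was not tested.

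Patterns over 3 libraries are shared by many genes. By the distance between log2 ratios to IM, and among the mRNA genes with at least 200 reads in all and values above 0 in every library, 10022 for PRDM16 and 10021 for the others, UCP3 had 26 genes within a distance of 0.1, the fewest of the 5 regulators. TNS1, which encodes the focal adhesion protein tensin 1, was nearest to it at 979, 1180 and 627 UQRPKM, followed by LOC100739698 and LOC100621926. The genes within that distance were 44 for PRDM16, 85 for EBF2, 189 for UCP2 and 257 for PPARGC1B. The nearest were DUT, C4H1orf192 and TMEM245 for PRDM16, GAL3ST4, SRBD1 and SDC1 for EBF2, PIK3R6, TTL and PTGR2 for UCP2, and METTL21A, MID2 and BOC for PPARGC1B. The regulators themselves needed only 30 reads in all. For PRDM16 the counting intervals ran from -0.32 to 1.25 in CM/IM and from -0.95 to 0.77 in CMT/IM. They are far wider than 0.1, so its nearest genes are not fixed by these reads.

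The rest of the programme was followed in fixed lists, which hold 119 further mRNA genes, 13 of them at 0 in every library. In CM/IM, 19 of the 96 genes tested (19.8%) passed the 1.5-fold limit, 6 of them higher and 13 lower in CM, against 18.8% of all genes. In CMT/CM, 16 of 97 (16.5%) passed, 9 higher and 7 lower, against 19.5%. In CMT/IM, 22 of 95 (23.2%) passed, 9 higher and 13 lower, against 20.7%. With the exact test added, 11, 11 and 15 genes were left, or 11.5%, 11.3% and 15.8%, against 10.1%, 10.6% and 11.9% of all genes. Scaled to the adipocyte markers, the split in CMT/CM became 31 higher and 3 lower, and in CMT/IM 14 higher and 5 lower. This scaling moves every gene up by the same amount, 0.42 in CMT/CM and 0.24 in CMT/IM. The share of all genes past the limit was not computed under it, so these splits cannot be read as particular to the programme. CEBPA, PPARG and CIDEC are also in both the scaling list and the counted lists.

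**Figure D4:**
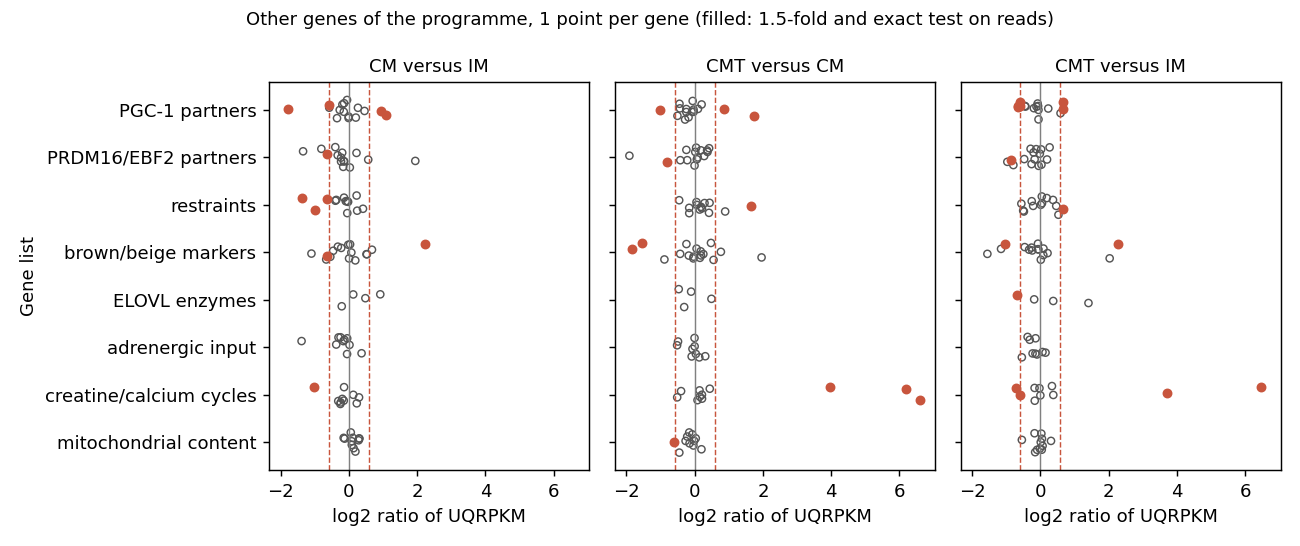
Log2 ratios of UQRPKM (horizontal axis) of the other mRNA genes in 8 fixed lists, 1 point per gene with at least 1 UQRPKM in both libraries. Filled points passed 1.5-fold and the exact test on reads, and dashed lines mark a fold of 1.5. Most points lie inside the dashed lines, and the largest ratios, 6.61, 6.19 and 3.96 in CMT/CM, belong to ATP2A1, SLN and CKMT2 in the list of creatine and calcium cycles.

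The partners of the PGC-1 coactivators and the factors of mitochondrial biogenesis had 18 mRNA genes listed, of which 16 were tested in each comparison. At 1.5-fold, 2 were higher and 2 lower in CM/IM, 2 and 1 in CMT/CM, and 3 and 4 in CMT/IM, where 18.8%, 19.5% and 20.7% of all genes passed. The 3 that were higher in CMT/IM were PPARA at 0.66, SIRT1, a deacetylase of PGC-1α, at 0.66 and GABPA at 0.59, the last with an interval of 0.09 to 1.10. CREBBP, a histone acetyltransferase that works as a general coactivator, had 155, 43 and 146 reads. Its log2 ratio was -1.78 (-2.30 to -1.28) in CM/IM and 1.72 (1.22 to 2.25) in CMT/CM, so it was low in the CM library alone. PPARA, the fatty acid receptor that drives oxidation genes, had 37.1, 79.4 and 58.7 UQRPKM and rose by 1.10 (0.70 to 1.51) on the log2 scale in CM/IM. ESRRG, an orphan nuclear receptor that PGC-1 coactivators bind, had 46, 84 and 43 reads, with ratios of 0.94 (0.40 to 1.49) in CM/IM and -1.01 (-1.57 to -0.46) in CMT/CM, the latter just under the limit at -0.58 with adipocyte marker scaling. PPARA and ESRRG were highest in the CM library, which also held the hepatocyte transcripts. The part of hepatocytes in these differences was not tested, and with 1 pool it cannot be told apart from castration.

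GABPA, a factor that activates genes of the respiratory chain, was 0.86 (0.32 to 1.42) higher on the log2 scale in CMT than in CM. TFB1M, which modifies mitochondrial ribosomal RNA, had ratios of -0.59 in CM/IM and -0.67 in CMT/IM. Scaled to the median gene these were -0.53 and -0.58, the latter just under the limit, and with total read scaling the CMT/IM ratio was -0.55. PPARD, another fatty acid receptor, had 351, 317 and 223 UQRPKM and a ratio of -0.65 in CMT/IM, which was -0.57 with median gene scaling and so under the limit. PPARG, the main factor of adipocyte identity, was the highest of the list at 1454, 1745 and 1704 UQRPKM and passed the fold in no comparison. PPRC1, the third PGC-1 coactivator, was named after its values were seen. It had 69.0, 54.1 and 45.6 UQRPKM and a ratio of -0.60 (-0.79 to -0.40) in CMT/IM, which was under the limit with all 4 other scalings, at -0.36 to -0.55.

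Among the partners of PRDM16 and EBF2 and the determinants of beige fat, 15 of 18 mRNA genes were tested. CM/IM had 1 higher and 3 lower, CMT/CM had 2 lower, and CMT/IM had 3 lower, where 10.4%, 9.97% and 11.9% of all genes were lower. With the exact test, CEBPB was left in CM/IM and in CMT/IM, and FNDC5 in CMT/CM. CEBPB, which joins PRDM16 in starting the brown programme, had 108, 69.7 and 59.9 UQRPKM in IM, CM and CMT. It fell by 0.86 (-1.24 to -0.48) in CMT/IM, and its ratio of -0.64 in CM/IM was -0.57 with median gene scaling, under the limit. FNDC5, the precursor of irisin, had 44, 62 and 36 reads and a ratio of -0.82 (-1.46 to -0.21) in CMT/CM, or -0.40 with adipocyte marker scaling. CEBPA and FGFR1, an adipocyte factor and a receptor for FGF21, were the highest genes of the list and passed the fold in no comparison.

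The EBF relatives of EBF2 were compared with it because they bind similar sites. EBF1 had 415, 377 and 401 UQRPKM and EBF3 had 113, 115 and 115. Neither passed the fold, and EBF3 had a ratio of 0.02 (-0.12 to 0.17) in CM/IM. The UQRPKM of EBF2 was 1.17 times that of EBF3 in IM, 0.80 times in CM and 1.13 times in CMT.

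The genes that restrain the beige programme had 14 mRNA genes listed, of which 13 were tested. At 1.5-fold, 3 were lower and none of the 13 was higher in CM/IM, where 10.4% of all genes were lower. In CMT/CM 2 were higher, against 9.53% of all genes, and in CMT/IM 1 was higher, against 8.81%. HOXC10, which represses browning, had 39.4, 19.8 and 61.9 UQRPKM from 50, 24 and 77 reads. Its ratio was -0.99 (-1.76 to -0.26) in CM/IM and 1.64 (0.96 to 2.37) in CMT/CM. FOXO1, a factor under the control of insulin, had 415, 265 and 358 UQRPKM and fell by 0.65 (-0.80 to -0.50) in CM/IM. IKBKE, an inflammatory kinase that lowers energy expenditure, had 30, 11 and 21 reads and a ratio of -1.38 (-2.52 to -0.34) in CM/IM. TNFRSF1A and TWIST1, the highest genes of the list, passed the fold in no comparison.

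Of the marker and effector genes of brown and beige fat, 23 were listed as mRNA and 4 of these were at 0 in every library, among them CPT1B and LHX8. CM/IM had 2 of 16 higher and 3 lower, CMT/CM had 2 of 17 higher and 3 lower, and CMT/IM had 2 of 16 higher and 3 lower, where 18.8%, 19.5% and 20.7% of all genes passed in either direction. FABP3, a fatty acid binding protein of heart, muscle and brown fat, showed the largest ratio in CM/IM. It had 1917, 8926 and 9268 UQRPKM from 457, 2028 and 2165 reads, with ratios of 2.22 (2.07 to 2.37) in CM/IM and 2.27 (2.13 to 2.42) in CMT/IM. It was high in both castrated groups and nearly equal between them, at 0.05 (-0.03 to 0.14). The muscle sum was 139 UQRPKM in CM and 7801 in CMT, and the part of muscle cells in the FABP3 differences was not tested.

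P2RX5, an ATP-gated channel used as a surface marker of brown fat, had 51.9, 74.8 and 25.5 UQRPKM and fell by 1.55 (-1.92 to -1.20) in CMT/CM. It was highest in CM and lowest in CMT, as UCP3 was. CIDEB, a CIDEA relative typical of liver and listed as CIDE-B, had 25, 38 and 11 reads and fell by 1.83 (-2.95 to -0.83) in CMT/CM. CIDEB was highest in the CM library, which also held the hepatocyte transcripts, and the part of hepatocytes in its differences was not tested. CIDEC, the CIDEA relative of white fat droplets, was far higher at 14995, 15020 and 12692 UQRPKM and had a ratio of 0.00 (-0.03 to 0.03) in CM/IM. SLC27A1, a fatty acid transporter, had a ratio of -0.65 (-1.03 to -0.27) in CM/IM, just under the limit at -0.58 with median gene scaling.

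Some further markers were seen at low reads. DIO2, the deiodinase that makes active thyroid hormone in brown fat, had 18, 8 and 14 reads, and its ratio in CM/IM of -1.10 had an interval of -2.51 to 0.17. TMEM26, a surface marker of beige cells, had 15, 9 and 5 reads. ZIC1, a marker of classical brown fat, had 1 read in IM and none in CM and CMT. COX8H, the muscle and heart form of a cytochrome oxidase subunit, was listed at 0 in IM and CM and had 22 reads in CMT. In that library the muscle markers were highest, and whether the COX8H reads came from muscle cells was not tested. These low-read genes, other than those the rule took, were named after their values were seen.

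The ELOVL elongases had 5 mRNA genes listed, with ELOVL3 at 0 and 4 tested. CM/IM had 1 higher, CMT/CM had 0 past the limit, and CMT/IM had 1 higher and 1 lower. Of all genes, 18.8%, 19.5% and 20.7% passed in either direction in these comparisons. ELOVL1, which makes very long saturated chains, had 417, 360 and 260 UQRPKM and a ratio of -0.68 (-0.80 to -0.57) in CMT/IM, which was -0.57 with total read scaling and -0.44 with adipocyte marker scaling, both under the limit. ELOVL7 had 148, 207 and 193 UQRPKM and passed the fold in no comparison.

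The adrenergic input, which turns thermogenesis on through cAMP, had 12 mRNA genes listed. At 1.5-fold, 1 of 10 was lower in CM/IM, against 10.4% of all genes. In CMT/CM and in CMT/IM 0 of 9 passed, against 19.5% and 20.7% of all genes. The gene that was lower was NPR3, a clearance receptor for natriuretic peptides, named after its values were seen, with 11, 4 and 0 reads. ADRB3, the receptor through which rodents activate brown fat, had 5, 0 and 1 reads. ADRB1, another β-receptor, had 208, 200 and 188 UQRPKM, and its interval in CM/IM ran from -0.26 to 0.15. GNAS and NPR1, the G protein that links these receptors to cAMP and a receptor for natriuretic peptides, were the highest genes of the list.

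Creatine and calcium cycling are ways of making heat that do not need UCP1. Their list had 17 mRNA genes, 4 of them at 0 in every library, CKB among them. In CM/IM 1 of 10 was lower, in CMT/CM 3 of 11 were higher, and in CMT/IM 2 of 10 were higher and 2 lower, beside 18.8%, 19.5% and 20.7% of all genes in either direction. ATP2A1, the fast-muscle calcium pump, had 7, 6 and 603 reads. SLN, which makes calcium pumps idle in muscle, had 0, 2 and 150 reads, and CKMT2, the muscle form of mitochondrial creatine kinase, had 5, 4 and 64. These 3 genes moved with the 14 muscle markers in CMT, and ATP2A1 is itself on that marker list. The part of muscle cells in their differences was not tested. ATP2A2, the calcium pump of beige fat and most other tissues, had 302, 273 and 302 UQRPKM, with a ratio of 0.00 (-0.12 to 0.12) in CMT/IM. GAMT, an enzyme of creatine synthesis, was the highest gene at 974, 1141 and 865 UQRPKM.

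PM20D1, a secreted enzyme that makes uncoupling N-acyl amino acids, had 129, 62.9 and 85.4 UQRPKM. It fell by 1.04 (-1.32 to -0.76) in CM/IM. Its ratio of -0.59 (-0.84 to -0.35) in CMT/IM was under the limit with all 4 other scalings. RYR2, a calcium release channel that takes part in calcium cycling, had 322, 268 and 193 reads and a ratio of -0.71 (-0.97 to -0.45) in CMT/IM, or -0.47 with adipocyte marker scaling.

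The readouts of mitochondrial content had 12 mRNA genes listed and 11 tested. None of the 11 passed the fold in CM/IM or in CMT/IM, against 18.8% and 20.7% of all genes. In CMT/CM 1 of 11 passed, against 19.5% of all genes. CS, the citrate synthase used as a measure of mitochondrial mass, had 1945, 2018 and 1334 UQRPKM and a ratio of -0.60 (-0.69 to -0.51) in CMT/CM, which was under the limit with all 4 other scalings. COX5B and ATP5B, subunits of cytochrome oxidase and ATP synthase, were the highest of the list, at 7904, 8676 and 7808 UQRPKM and at 8148, 7313 and 7228 UQRPKM. The median log2 ratio of the list was 0.11 in CM/IM, -0.15 in CMT/CM and 0.01 in CMT/IM, beside -0.06, -0.02 and -0.08 over all genes tested.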

How the data were processed

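Pooled RNA of each group was sequenced on the Ion Proton (single-end) and mapped by the authors to Sscrofa10.2 with MapSplice. The deposited values are RPKM of a modified kind (UQRPKM), divided by each library's upper quartile. The counting tool and annotation are not given in the sources used here. Gene positions are not given, as the name table describes Sscrofa11.1.

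Reads were recovered as the smallest whole numbers that fit all 3 libraries of a gene (length up to 120000 bases, relative tolerance 1e-08), with upper quartiles in the ratio 149, 142 and 146. They fitted 100% of the 20838 genes above 0 and can be too low by a common factor. The recovery of reads was checked on simulated data. Log2 ratios, exact intervals and exact binomial tests with Benjamini-Hochberg adjustment were computed with SciPy 1.17.1 and statsmodels 0.14.6. The test of the study's methods, DEGSeq, was not run. Groups came from the sample titles.

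The genes and lists were chosen with earlier results of these data known. All 8 regulators are named, and from each list up to 5 genes past 1.5-fold with an adjusted exact p under 0.05 in any comparison, plus its 2 highest genes. Alternatives changed the scaling, pseudocount, minimum, fold and test.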

Additional observations from a re-analysis of the deposited data

How the results depend on the processing

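With 1 library per group, no library could be left out. No paired analysis was possible because the groups have 1 library each and share no pairs. Of the 75 recomputed log2 ratios of the 5 regulators, 63 stayed within their counting interval and 12 left it. Among the called ratios, which are those of UCP3 in CMT/CM and CMT/IM, 0 changed sign. Some ratios that were not called did change sign, such as PPARGC1B in CMT/CM, from -0.29 to 0.14 with adipocyte marker scaling. The regulators past the fold numbered 0 in CM/IM under every alternative tried. In CMT/CM their number went from 1 to 2 with adipocyte marker scaling (EBF2 and UCP2 higher in place of UCP3 lower) and to 0 at a fold of 2. In CMT/IM it went from 1 to 0 with median gene, total mRNA read or adipocyte marker scaling and at a fold of 2. Among the other genes of the programme, a fold of 2 left 9, 10 and 8 in CM/IM, CMT/CM and CMT/IM, the exact test left 11 in CM/IM, and at least 10 reads left 10 in CMT/CM. Adipocyte marker scaling gave 34 in CMT/CM, and the share of all genes was not computed under it. In CMT/IM the split of 9 higher and 13 lower became 9 and 10 with total UQRPKM scaling, 10 and 8 with median gene scaling and 10 and 7 with total read scaling. In CM/IM, 6 and 13 became 8 and 10 with median gene scaling. Adipocyte marker scaling moved all log2 ratios by 0.42 in CMT/CM and by 0.24 in CMT/IM, and total read scaling by 0.11 in CMT/IM.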

Other observations

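ELOVL6 and TFAM, a fatty acid elongase and a packaging factor of mitochondrial DNA, were listed as miscRNA and so entered no count above. ELOVL6 had 5648, 6321 and 3709 UQRPKM in IM, CM and CMT, with log2 ratios of 0.16 (0.09 to 0.23) in CM/IM and -0.77 (-0.85 to -0.69) in CMT/CM. It was highest in CM and lowest in CMT. TFAM had 58.2, 70.3 and 51.7 UQRPKM and ratios of 0.27 (-0.06 to 0.61) and -0.44 (-0.80 to -0.09).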
